A study of Mus musculus with 12 samples.

Results

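Late suprabasal keratinocytes of the mouse esophagus are taken here as the cells with the highest ratio of suprabasal to basal keratin transcripts whose counts on 5 genes of the superficial layer stayed under a set share. They were chosen by expression. Within each mouse, cells were ranked by the log2 ratio of counts on Krt4 and Krt13 plus 1 to counts on Krt5, Krt14 and Krt15 plus 1, and the highest of 4 equal parts was taken. Cells with at least 3 counts on 8 mitotic genes, at least 4 counts on 9 S-phase genes, or at least 0.4% of their counts on Sprr3, Slpi, Crct1, Cnfn and Sprr1a were left out of the ranking, and the last of these are called superficial cells. This gave 692 late cells of 2768 ranked cells, 4317 cells that passed the filters and 4386 barcodes. The aged mice 1, 2 and 3 held 34, 200 and 98 late cells, and the young mice 1, 2 and 3 held 146, 94 and 120. The other 3 parts, from high to low, are called early suprabasal cells, cells leaving the basal state and basal cells.

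The study compared peeled esophageal epithelium of aged (at least 18 months) and young (at most 4 months) C57BL/6 mice with inDrop, a droplet method that tags the RNA of each cell with a barcode, and its title names cellular diversity and mitochondria in aging. It comprised 12 libraries, 2 from each of 3 aged and 3 young mice. No treatment was given. The labels do not say whether a numbered mouse was 1 animal or a pool, so p-values measure the spread between these samples.

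The mouse esophagus is lined by a stratified squamous epithelium in which the basal layer divides. Cells that leave it replace keratins 5, 14 and 15 with keratins 4 and 13, let go of the basement membrane, and build more desmosomes. They then load the proteins and lipids that the outermost cornified layer crosslinks into a barrier.

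Between 88.1% and 97.8% of a mouse's barcodes occurred in both of its libraries. In late cells their counts differed by less than the sampling noise (chi-square per gene of 0.463 to 0.937, against 2.74 to 3.69 between mice of a group). The 2 libraries were therefore summed and each mouse was counted as 1 sample. Such small differences mean that the 2 libraries were not independent samples. Whether a molecule was counted in both was not tested. Late cells held 128364 to 497350 counts per mouse, with aged mouse 1 the shallowest. The median was 2600 counts per late cell, against 2048.5 in early suprabasal cells, 1821.5 in cells leaving the basal state and 1864.5 in basal cells. Of the 692 late barcodes, 307 had another barcode in the same mouse that differed by 1 base, and for 262 of these the neighbour was also a late cell. Merging such barcodes before ranking left 598 late cells, a step chosen after the data were seen. Between mice, 1 late barcode was shared, by aged mouse 2 and young mouse 2. In aged mouse 2 transcripts of the upper layers were also frequent outside them: Krtdap was found in 36.0% of its basal cells, against 0 to 13.2% in the other mice.

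The class had no gap at its limit. The ranking value of the last cell inside was 3.17 to 4.76 depending on the mouse, and that of the first cell outside was 3.17 to 4.75. The median ranking value of late cells was 4.55 to 6.45.

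The label was checked against its markers. Every comparison of late cells with other cells describes what the ranking sorted and carries no test. Levels are CPM, the summed counts of a class in a mouse scaled to a common total. Krt4, a type II keratin used in the ranking, stood at 37012, 57386 and 48328 CPM in late cells of aged mice 1, 2 and 3 and at 58186, 41816 and 48751 CPM in young mice 1, 2 and 3. Its partner Krt13, also used, stood at 24843, 19624 and 20352 CPM in the aged and 20069.5, 17384 and 25129.9 CPM in the young mice. The basal keratins Krt5 and Krt14 were at 187 to 447 and 0 to 40.2 CPM in late cells, against 7138 to 9873 and 3685 to 6956 CPM in basal cells. Of 6236 genes with at least 20 CPM, 969 (15.5%) were higher and 1262 (20.2%) were lower in late than in basal cells in all 6 mice.

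The 4 markers that the ranking did not use were higher in late cells than in early suprabasal cells in all 6 mice. Mt4, the metallothionein of stratified epithelia, was at 7658, 4900.0 and 5227 CPM in aged and 6350.3, 6361 and 7528 CPM in young late cells. It was lower in superficial cells than in late cells in 5 of 6 mice. Krtdap, a secreted protein of keratinocyte differentiation, was at 10866 to 13351 CPM in late cells and 2121 to 6873 CPM in early suprabasal cells. Unlike Mt4, it was higher still in superficial cells (19941 to 29537 CPM). Dsc2, a desmosomal cadherin, was at 826 to 1832 CPM in late cells and 194 to 1298 CPM in early suprabasal cells. Krt23, a type I keratin, was at 77.9 to 187 CPM in late cells and 0 to 88.1 CPM in early suprabasal cells, and had no count in the basal cells of any mouse.

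**Figure D1:**
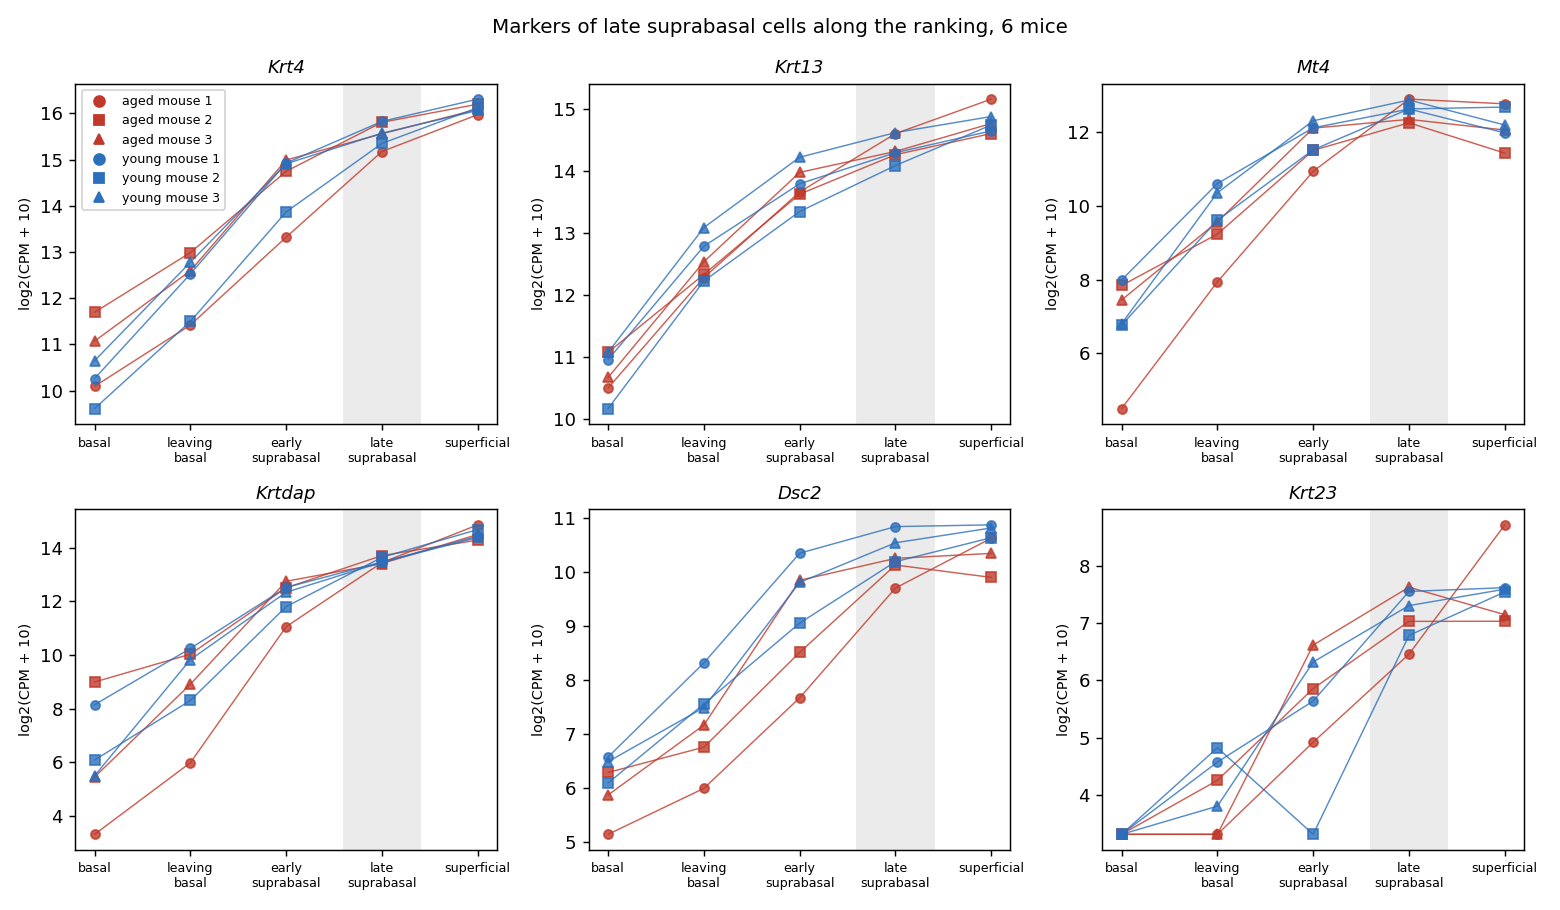
Level of the 6 markers as log2(CPM + 10) (y axis) in the 4 parts of the ranking and in superficial cells (x axis), 1 line per mouse, aged in red and young in blue, with the late class shaded. Krt4 and Krt13 were used in the ranking, Mt4 is higher in late than in superficial cells in 5 of 6 mice, and Krtdap goes on rising.

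Shares of cells with a count were compared after each cell was thinned to 1000 counts, which left out 23 shallower late cells (14 aged, 9 young). Krtdap was found in 98.2% of late cells, 99.8% of superficial cells, 73.0% of early suprabasal cells and 14.2% of basal cells. Fibroblast-like barcodes, which had a median of 2183 counts, showed it in 14.5%, from 0 to 42.9% depending on the mouse. They also showed Krt5 in 77.4% and Krt14 in 64.5%, so they are no clean background. Whether Krtdap in basal cells was background was not tested. Mt4 was found in 98.2% of late, 88.8% of early suprabasal and 85.1% of superficial cells, and in 20.97% of fibroblast-like barcodes. Dsc2 was found in 62.3%, 38.3%, 56.6% and 3.23%, in the same order. Krt23 was found in 10.01% of late cells and in 0 of 62 fibroblast-like barcodes, which allows a share of up to 4.84%; this limit covers counting error only. Without thinning, the shares of late cells were 98.8% for Krtdap, 99.3% for Mt4, 80.1% for Dsc2 and 22.4% for Krt23.

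Markers of other cell types were near 0. None of the 65 fibroblast-like barcodes was a late cell, while 14 were in early suprabasal cells. The 8 fibroblast genes together made 3.58 to 54.5 CPM of late cells (6.94 to 54.5 in aged, 3.58 to 11.4 in young mice), with Col6a1 and Pdgfra at 0. The 6 endothelial genes measured made 0 to 3.58 CPM, and the 4 leukocyte genes 0 to 3.58 CPM with Ptprc, Cd52 and Nkg7 at 0. The 8 Langerhans and myeloid genes made 3.47 to 31.2 CPM in aged and 5.69 to 45.6 CPM in young mice, with Cd207, Cd74 and Tyrobp at 0.

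Against early suprabasal cells, late cells carried more transcripts of lipid enzymes and fewer of the genes that hold a cell to the basement membrane. Of 6016 genes with at least 20 CPM, 423 (7.03%) were higher and 543 (9.03%) were lower in late cells in all 6 mice. Ratios are medians over mice on CPM + 10. Elovl4, the elongase that makes very long chain fatty acids for barrier ceramides, was the highest among genes of at least 100 CPM outside the ranking. It stood at 319, 428 and 427 CPM in aged and 525, 379 and 361 CPM in young late cells, against 47.97 to 220.3 CPM in early suprabasal cells, 5.05-fold higher. All late values lay above all values of early suprabasal cells. Sqle, squalene epoxidase of cholesterol synthesis, was 3.30-fold higher, and Psapl1, a prosaposin-like protein, 2.89-fold. Serpinb12, an intracellular protease inhibitor, had a median log2 ratio of 1.38. Gjb2, the gap junction protein connexin 26, was 2.56-fold higher, and Cited2, a transcriptional coregulator, 2.56-fold.

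Col17a1, the transmembrane collagen of hemidesmosomes, was at 7.79 to 38.2 CPM in late cells and 208 to 754 CPM in early suprabasal cells, 10.99-fold lower. Itgb4 and Itga6, the chains of the hemidesmosomal integrin, were 5.91-fold and 3.75-fold lower, and Dst, which links that integrin to keratin, 4.24-fold. Of 11 basal adhesion genes at 20 CPM, 10 were lower in all 6 mice and 0 were higher. Dcn and Sparc, matrix genes of fibroblasts, were also among the 12 lowest. Early suprabasal cells held the 14 fibroblast-like barcodes and late cells held none, and their part in these 2 values was not tested.

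**Figure D2:**
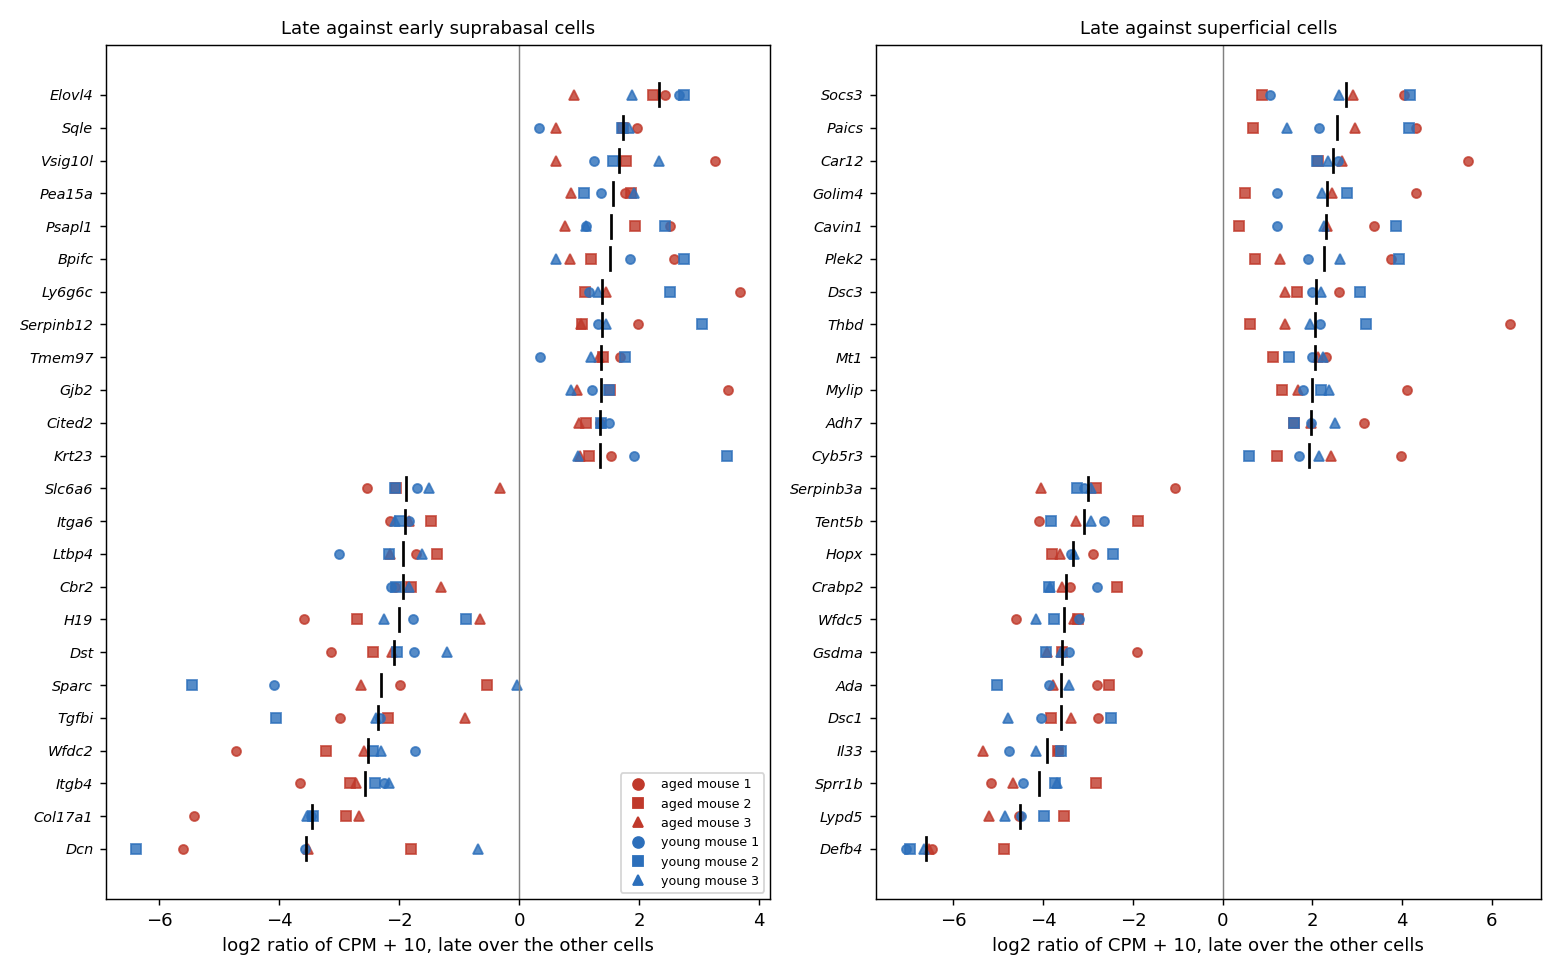
Log2 ratio of CPM + 10 in late cells over early suprabasal cells (left) and over superficial cells (right) for the 12 genes with the highest and the 12 with the lowest median, 1 point per mouse, with the median as a black bar. All points of a gene lie on 1 side of 0 because genes were chosen that way, with Elovl4 highest on the left and Defb4 lowest on the right.

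Of 10 desmosome genes at 20 CPM, 6 were higher in late cells than in early suprabasal cells in all 6 mice and 0 were lower, against 7.03% and 9.03% of all genes. Dsp, the plaque protein that anchors keratin, had a mean of 3469.6 ± 359 CPM in late cells and 2247 ± 586 CPM in early suprabasal cells (SD, n = 6 mice). Dsc3, another desmosomal cadherin, had means of 867 CPM in late cells, 862 CPM in early suprabasal cells and 199 CPM in superficial cells. Of 11 genes of adherens, tight and gap junctions, 3 were higher and 0 lower, among them Gja1, connexin 43, with means of 3884 and 2555 CPM.

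Cornified envelope genes were in part on and in part off. Of 9 at 20 CPM, 8 were higher than in early suprabasal cells in all 6 mice, and of the 29 measured, 10 had no count in any late cell, Flg and Rptn among them. Tgm3, a transglutaminase that crosslinks envelope proteins, had means of 3225 CPM in late cells and 2024 CPM in early suprabasal cells. The scaffold proteins Evpl and Ppl had means of 650.4 and 736 CPM in late cells, against 413 and 439.6 CPM. Sprr1b, a small proline-rich envelope precursor, was still low, with a mean of 26.7 CPM in late and 613 CPM in superficial cells.

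Of 16 barrier lipid genes at 20 CPM, 10 were higher than in early suprabasal cells in all 6 mice and 0 were lower, with a median log2 ratio of 0.73 against -0.07 over all genes. Fabp5, a fatty acid carrier, had means of 4469 and 2154 CPM. Dgat2, which makes triglyceride, had 428 and 216 CPM, and Abca12, the lipid transporter of lamellar granules, 99.6 and 27.4 CPM. Sterol synthesis genes were listed after Sqle had been seen among the highest ratios. Of 22 at 20 CPM, 11 were higher in all 6 mice and 0 were lower, with a median log2 ratio of 0.63. Against basal cells, 20 of 21 were higher in all 6 mice and 0 were lower. Cyp51, the demethylase of lanosterol, had means of 258 and 138 CPM, and Srebf2, a transcription factor that drives the pathway, 299.8 and 184 CPM.

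The promoter of Hmgcs1, the synthase near the entry to sterol synthesis, is shown because the pathway is classically controlled through sterol response elements. RefSeq promoters on GRCm38.p6, from 250 bases before to 50 bases after the start, were matched for 17 of the 24 listed sterol genes. The letters TCACNCCAC, searched on both strands, occurred in 1 of the 17, Hmgcs1, and in 1.24% of all 32851 promoters. Hmgcs1 had means of 522 CPM in late cells and 398 CPM in early suprabasal cells and was higher in 5 of 6 mice. The window is chr13:119690101-119690400 on the plus strand, and capitals mark the match.
Hmgcs1: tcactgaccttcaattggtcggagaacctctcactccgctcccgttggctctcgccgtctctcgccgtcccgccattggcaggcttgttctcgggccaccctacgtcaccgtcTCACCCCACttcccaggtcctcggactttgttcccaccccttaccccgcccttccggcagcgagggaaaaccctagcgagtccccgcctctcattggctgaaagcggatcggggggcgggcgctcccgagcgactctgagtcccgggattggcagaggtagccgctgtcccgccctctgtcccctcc

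Of 20 differentiation factors at 20 CPM, 4 were higher in late cells than in early suprabasal cells in all 6 mice and 2 were lower. Over all genes these shares were 7.03% and 9.03%. With so few genes, the counts of this list and of the Notch list below are given as description. Grhl3 and Grhl1, grainyhead factors of epithelial barrier formation, had means of 662 and 230.5 CPM in late cells, against 384 and 98.9 CPM. Zfp750, a factor of terminal keratinocyte differentiation, had 436 against 289 CPM. Trp63, the factor that maintains basal keratinocytes, was lower in all 6 mice (179 against 311 CPM). Of 8 Notch pathway genes, Notch1 (69.4 against 160.2 CPM) and Jag2 were lower in all 6 mice and 0 were higher. Cdkn1a, the cell cycle inhibitor p21, was higher in all 6 (1215 against 825 CPM).

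Of 18 immediate early and heat shock genes, 9 were lower in late cells than in early suprabasal cells in all 6 mice, and 2, Hspb1 and Dnajb1, were higher. Over all genes 9.03% were lower and 7.03% higher. Fos, a subunit of the AP-1 factor, had means of 4184 and 5475 CPM, its partner Jun 1854 and 2698 CPM, and the nuclear receptor Nr4a1 309 and 604 CPM.

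The metallothioneins, small metal-binding proteins, took different courses. Mt1 was at 1776, 1878 and 2234 CPM in aged and 1807, 2040.5 and 2530.4 CPM in young late cells. Each mouse was higher in its early suprabasal cells (2414 to 3357 CPM), though the 2 ranges overlap, and lower in its superficial cells (350.2 to 852 CPM). Mt2 was likewise lower than in early suprabasal cells in all 6 mice, at 13.9 to 85.7 CPM in late cells, whereas Mt4 was higher in all 6.

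The promoters of Mt4 and Mt1, genes of 1 cluster on chromosome 8, are shown because from early to late suprabasal cells Mt4 was higher and Mt1 lower in all 6 mice. From late to superficial cells Mt1 was lower in every mouse and Mt4 in 5 of 6. The core letters of a metal response element, TGCACNC or TGCGCNC on both strands, occurred in 25.7% of all promoters. The Mt4 window (chr8:94136954-94137253, plus strand) held 1 match and the Mt1 window (chr8:94178839-94179138, plus strand) held 3, a number that 1.97% of promoters reach. Capitals mark the matches, which describe letters and not bound sites.
Mt4: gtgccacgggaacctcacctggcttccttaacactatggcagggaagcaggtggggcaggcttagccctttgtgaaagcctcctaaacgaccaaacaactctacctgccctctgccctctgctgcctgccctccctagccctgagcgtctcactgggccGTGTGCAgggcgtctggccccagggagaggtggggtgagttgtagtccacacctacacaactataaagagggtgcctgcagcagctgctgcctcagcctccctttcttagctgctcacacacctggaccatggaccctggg
Mt1: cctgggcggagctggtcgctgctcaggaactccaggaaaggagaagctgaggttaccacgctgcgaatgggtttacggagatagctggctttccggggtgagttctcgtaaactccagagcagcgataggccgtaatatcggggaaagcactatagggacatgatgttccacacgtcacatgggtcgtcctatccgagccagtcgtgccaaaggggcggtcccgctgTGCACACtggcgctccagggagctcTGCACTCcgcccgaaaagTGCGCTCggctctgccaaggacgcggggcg

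Against superficial cells, late cells held lower levels of genes of the outermost layer. The 5 genes that set superficial cells apart were lower in late cells in all 6 mice, as the rule had chosen them. Of these, Cnfn, Crct1 and Sprr1a were nonetheless higher in late than in early suprabasal cells in all 6 mice (median log2 ratio of the 5 genes 0.81), with Cnfn, cornifelin, at means of 457 CPM in late, 188 CPM in early suprabasal and 7592 CPM in superficial cells. Of 5509 genes at 20 CPM, 919 (16.7%) were higher and 273 (4.96%) were lower in late cells in all 6 mice, and the median log2 ratio over all genes was 0.27. Defb4, an antimicrobial defensin, was the lowest, with means of 4.16 CPM in late and 1095 CPM in superficial cells. Il33, an alarmin cytokine, had 5.44 and 291 CPM, and Dsc1, the desmosomal cadherin of the uppermost layers, 17.4 and 299.8 CPM. Crabp2, which carries retinoic acid, had 171 and 1748 CPM. Among the 12 highest were Adh7, a retinol and alcohol dehydrogenase (2989 and 719.8 CPM), and Car12, a carbonic anhydrase (463 and 71.1 CPM). Of 17 barrier lipid genes at 20 CPM, 10 were lower in late than in superficial cells in all 6 mice and 1 was higher, with a median log2 ratio of -0.89. Elovl4 had a mean of 1399.6 CPM and Abca12 of 199 CPM in superficial cells. Of 16 cornified envelope genes, 7 were lower and 0 higher, and of 11 desmosome genes 5 were lower and 2, Dsc3 and Dsg3, higher. Krt4 and Krt13 were lower in late than in superficial cells in all 6 mice. Superficial cells numbered 5 in aged mouse 1 and 17 in young mouse 2, so their values there are coarse.

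Counts varied between late cells, with no technical baseline to set the variation against. After thinning to 1500 counts (582 cells), the median ratio of variance to mean over 1962 genes was 1.32. It was 32.7 for CT010467.1, annotated as ribosomal RNA, 8.22 for Krt4, 6.37 for Krtdap and 3.67 for Serpinb12. When the class was divided at its middle rank, Krtdap and Dsc2 were higher in the upper part in all 6 mice, with means of 13084 against 10415 CPM and 1413 against 1123 CPM. Mt1 was lower in the upper part in all 6 (1823 against 2277 CPM). Serpinb12 was higher there in 5 of 6 (697 against 418 CPM).

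Krt1 and Krt10, the keratin pair of suprabasal skin, were concentrated in a few late cells. They reached at least 10 counts together, a limit chosen after the values were seen, in 6 late cells of aged mouse 2 and in 1, 2 and 3 late cells of young mice 1, 2 and 3. These cells held 89.8%, 86.9%, 67.2% and 83.7% of the Krt1 and Krt10 counts of late cells in their mouse. Krt4 and Krt13 made a median of 1.49% to 5.33% of counts in them, against 5.77% to 7.95% in the other late cells of those mice.

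Between aged and young mice, late cells differed in few genes by the test. Cells were ranked within each mouse without regard to age. Of 4670 genes tested with edgeR's quasi-likelihood test, 3 (0.0642%) passed a Benjamini-Hochberg adjusted p of 0.05, with 1 gene higher and 2 lower with age. An unadjusted p under 0.05 was reached by 213 genes. The count was 7 without aged mouse 3 and 5 without young mouse 3, 9 with no filter on low counts, 8 in a wider class (the highest of 3 equal parts), and 1 with all mice thinned to the shallowest. Fold changes are aged over young with the standard error of the fit.

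H19, an imprinted long noncoding RNA (chr7:142575529-142578143, GRCm38), was lower in aged late cells. It stood at 7.79, 24.1 and 62.4 CPM in aged mice 1, 2 and 3 (1, 12 and 18 counts) and at 264, 494 and 159 CPM in young mice 1, 2 and 3 (104, 138 and 56 counts). Every aged mouse lay below every young mouse. The log2 fold change was -3.07 ± 0.41 (SE, n = 3 against 3; edgeR adjusted p = 0.000142). The call was lost with DESeq2 (adjusted p = 0.0711) and with all mice thinned to the shallowest (0.0706). The counts were concentrated in few cells: the 5 highest late cells held 54.8%, 55.1% and 57.1% of them in young mice 1, 2 and 3, and 1 cell of aged mouse 3 held 11 of its 18. When the class was divided at its middle rank, H19 had a mean of 279 CPM in the lower part and 60.6 CPM in the upper, and was higher in the upper part in 2 of 6 mice. After thinning to 1000 counts, a count of H19 was found in 0 to 5.15% of aged and 9.72% to 17.0% of young late cells (2.94% to 6.12% and 15.8% to 23.4% without thinning). Fibroblast-like barcodes showed it in 33.9% and basal cells in 51.1%, and the part of free RNA in the shares of late cells was not tested.

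Krt6a, a keratin induced in wounded and stressed epithelium (chr15:101689910-101694307), was also lower in aged late cells. It stood at 15.6, 48.3 and 58.96 CPM in the aged (2, 24 and 17 counts) and 339.6, 218 and 142 CPM in the young mice (134, 61 and 50 counts), without overlap. The 5 highest late cells held 32.8%, 67.2% and 48% of the Krt6a counts in young mice 1, 2 and 3, and 66.7% and 82.4% in aged mice 2 and 3. In aged mouse 1 the 2 counts came from 1 cell. The log2 fold change was -2.29 ± 0.35 (SE, n = 3 against 3; edgeR adjusted p = 0.000809), and the call held in all 20 alternatives. Reads of Krt6a can be shared with its near copy Krt6b, so the split between the 2 genes is uncertain. Krt6b stood at 15.6, 113 and 20.8 CPM in aged and 147, 93.1 and 62.6 CPM in young late cells, which overlap (log2 fold change -0.66, edgeR unadjusted p = 0.143).

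Hoxc8, a homeobox factor of positional identity (chr15:102990607-102994111), was higher in aged late cells. It stood at 148, 296 and 357 CPM in the aged and 111, 85.9 and 105 CPM in the young mice, without overlap. The log2 fold change was 1.51 ± 0.27 (SE, n = 3 against 3; edgeR adjusted p = 0.0106). The call was lost without aged mouse 2 (adjusted p = 0.0577), aged mouse 3 (0.122) or young mouse 2 (0.211). It was also lost in a narrower class, the highest of 5 equal parts (0.0603) and with all mice thinned to the shallowest (0.625).

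**Figure D3:**
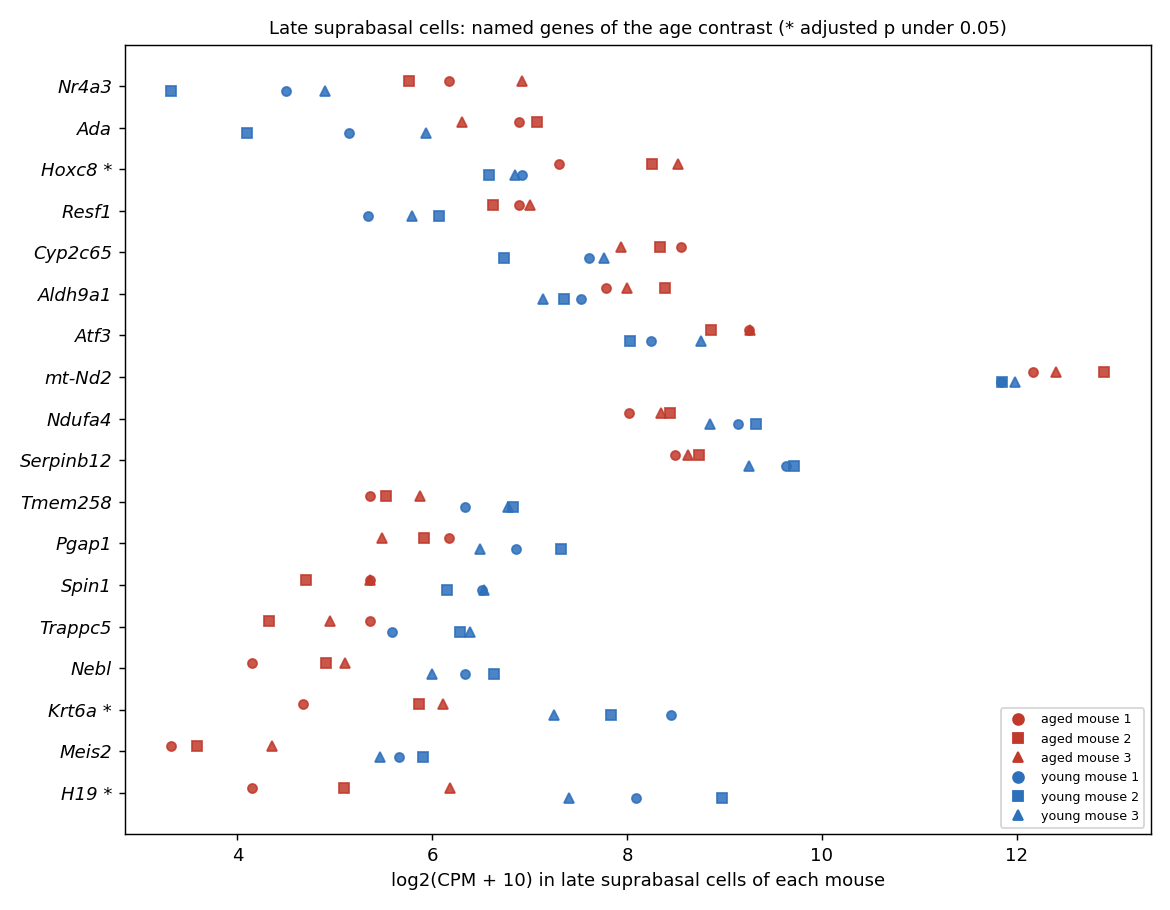
Level as log2(CPM + 10) (x axis) of 18 named genes of the age contrast in late cells, 1 point per mouse, aged in red and young in blue. Asterisks mark H19, Krt6a and Hoxc8, which passed the adjusted threshold, and the other 15 were chosen because their groups do not overlap.

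The same genes were read in the rest of the ranking. H19 was also lower in aged mice in basal cells, cells leaving the basal state and early suprabasal cells, with log2 fold changes of -1.47, -1.58 and -2.30 (edgeR adjusted p = 0.000393, 0.000666 and 0.00108). Hoxc8 was higher in the first 2 of these, by 1.74 and 1.81 (adjusted p = 0.00104 and 0.0066), and had 1.60 in early suprabasal cells (adjusted p = 0.997). Krt6a had -0.66, -0.57 and -1.38 in the same order (adjusted p = 0.803, 0.777 and 0.997). The age difference in late cells minus that in basal cells was -1.63 ± 0.36 for H19 (SE; edgeR adjusted p = 0.0549), -1.56 ± 0.38 for Krt6a (0.158) and -0.23 ± 0.38 for Hoxc8 (1). That of H19 passed in 5 of 8 alternatives: without aged mouse 3, young mouse 1 or young mouse 3 (adjusted p = 2.57e-05, 0.00312 and 0.000205), with DESeq2's size factors (0.0483) and with no filter on low counts (0.00192). It did not pass without aged mouse 1, aged mouse 2 or young mouse 2 (0.144, 0.686 and 0.546).

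**Figure D4:**
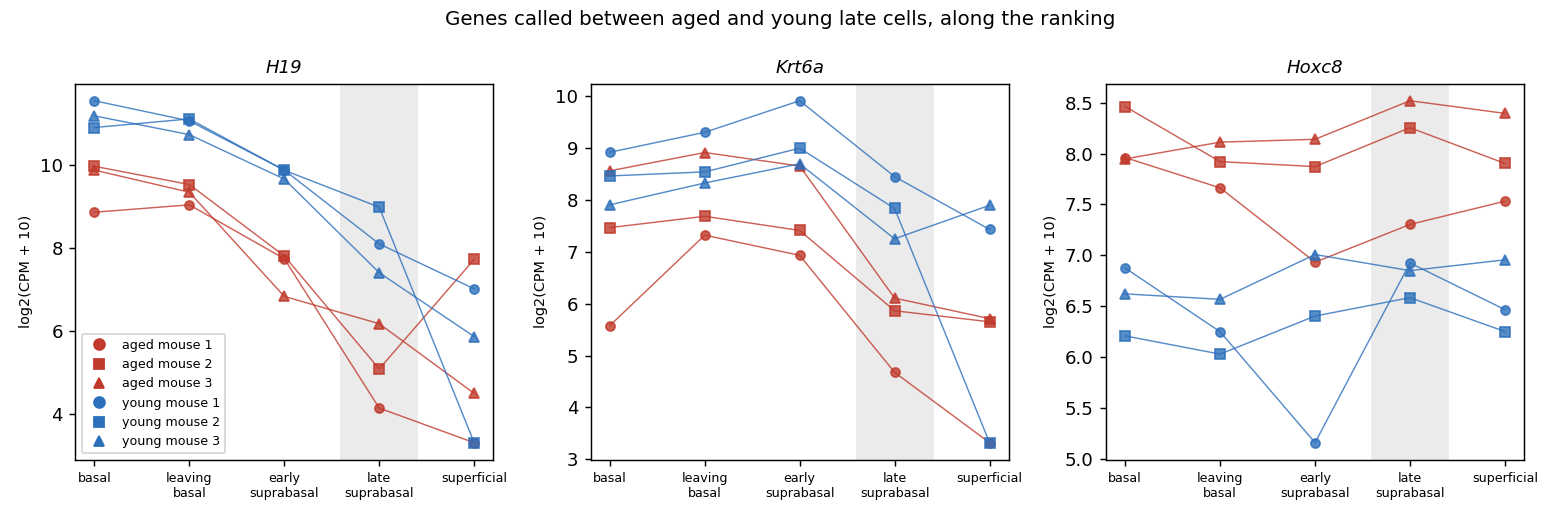
Level as log2(CPM + 10) (y axis) of H19, Krt6a and Hoxc8 in the 4 parts of the ranking and the superficial cells (x axis), 1 line per mouse, aged in red and young in blue. The groups do not overlap in any of the 4 parts for H19, in early and late suprabasal cells for Krt6a, and in all classes but early suprabasal cells for Hoxc8.

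Over all genes, 1 of 5652 (0.0177%) had an age difference in late cells unlike that in basal cells, and 235 had an unadjusted p under 0.05. It was Krt4, which the ranking used to choose both classes, so no test of it is given and nothing is read from it. In basal cells Krt4 stood at 1083, 3308 and 2143 CPM in aged and 1218, 772 and 1596 CPM in young mice, which overlap. Without aged mouse 3 or without young mouse 1 the count was 5, and without aged mouse 2 or young mouse 3 it was 2. Each of these counts includes Krt4, and that without aged mouse 3 also Krt15 and Cnfn, which the rule used too. Nothing is read from those genes. Against early suprabasal cells, 0 of 5502 genes (0%) passed in edgeR, and 158 had an unadjusted p under 0.05. The smallest p there belonged to Atp2b1, Btbd7 and Mpp6, each with an adjusted p of 1.

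Groups did not overlap in 173 genes (3.7%) higher and 314 genes (6.72%) lower in aged late cells. With 3 mice against 3, groups without overlap give an exact two-sided permutation p of 0.1 and no lower, so these counts are description only. Of those that missed the adjusted threshold, those of smallest p are given as values, 7 higher and 8 lower in aged mice. Nr4a3, an orphan nuclear receptor of the immediate early class, was at 62.3, 44.2 and 111 CPM in aged and 12.7, 0 and 19.9 CPM in young mice (log2 fold change 2.64, edgeR adjusted p = 0.0958). Ada, adenosine deaminase, was at 109, 125 and 69.4 CPM in aged and 25.3, 7.16 and 51.2 CPM in young mice (1.86, adjusted p = 0.114). In superficial cells, where Ada is higher than in late cells, it had a mean of 726 CPM. Atf3, a stress-induced transcription factor, was at 599.9, 454 and 603 CPM in aged and 294, 251 and 424 CPM in young mice (0.80, adjusted p = 0.340). Resf1, Aldh9a1, Cyp2c65 and mt-Nd2 had log2 fold changes of 0.69 to 1.29 and adjusted p of 0.281 to 0.384.

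In the lower direction, Serpinb12 was at 351, 416 and 385 CPM in aged and 786, 827 and 598 CPM in young late cells (log2 fold change -0.87, edgeR adjusted p = 0.131). Meis2, a homeobox cofactor, was at 0, 2.01 and 10.4 CPM in aged and 40.5, 50.1 and 34.2 CPM in young mice (-3.06, adjusted p = 0.132). Ndufa4, a nuclear-encoded respiratory chain subunit, was at 249, 338 and 316 CPM in aged and 555, 630.0 and 453 CPM in young mice (-0.77, adjusted p = 0.340). Nebl, Spin1, Pgap1, Trappc5 and Tmem258 had log2 fold changes of -1.79 to -1.14 and adjusted p of 0.206 to 0.545.

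The markers and gene groups of the late state were compared by age as well, and only some of the lists compared are described. Of all 4670 genes tested, 2334 were negative. For the 6 markers the log2 fold changes were -0.45 to 0.10, 0 passed the adjusted threshold in edgeR, and 1, Dsc2, had an unadjusted p under 0.05. Of 10 desmosome genes tested 9 were negative, with a median log2 fold change of -0.15 against 0.00 over all genes, and 0 passed in edgeR. Their summed level was 10805, 11332 and 11317 CPM in aged and 14614, 12157 and 12589 CPM in young mice, without overlap. Of 21 sterol genes tested 20 were negative, with a median of -0.24, and 0 passed in edgeR. Groups did not overlap, with aged lower, in 3 of the desmosome genes (Perp, Pkp1 and Dsc3) and in 4 of the sterol genes (Pmvk, Sqle, Ebp and Srebf2), against 6.72% of all genes. The summed level of the sterol genes was 2298, 3334 and 4065 CPM in aged and 4424, 4317 and 4252 CPM in young mice. Aged mouse 1, which had the fewest counts, was the lowest in the desmosome and the sterol sum, and its part in them was not tested. A lower level in aged mice was not particular to these 2 lists. Of 15 proteases and protease inhibitors tested, 11 were negative, with a median of -0.15, and 0 passed in edgeR. Their summed level was 4199, 4128 and 4263 CPM in aged and 5572, 4911 and 4998 CPM in young mice, without overlap.

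Transcripts of mitochondrial DNA made a larger share of counts in aged late cells. The share on 21 mitochondrial genes was 6.67%, 8.43% and 5.87% in aged mice 1 to 3. In young mice 1 to 3 it was 5.05%, 5.61% and 4.84%. Every aged mouse lay above every young mouse, by a mean of 1.83 percentage points (6.99% ± 1.31 against 5.16% ± 0.40, SD, n = 3 each; exact two-sided permutation p = 0.1, the smallest that 3 against 3 can give). Without aged mouse 2 the difference was 1.11 points. The share on mitochondrial protein genes was 4.65%, 7.14% and 4.36% in aged and 3.90%, 4.02% and 3.69% in young mice (exact permutation p = 0.1, adjusted 0.7 over 7 values per mouse). Their means differed by 1.51 percentage points, and by 0.64 without aged mouse 2. Shares on mitochondrial ribosomal RNA overlapped, at 1.28% to 2.01% in aged and 1.14% to 1.57% in young mice (exact permutation p = 0.3).

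Of 13 protein genes of mitochondrial DNA, 11 were measured and 7 tested, and mt-Nd3, mt-Co2 and mt-Co3 had no count in any late cell. The mitochondrial share thus covers only part of these transcripts. The 7 tested all had positive fold changes, from 0.37 for mt-Co1 to 0.77 for mt-Nd6 on the log2 scale, with a median of 0.58. None passed, the lowest edgeR adjusted p was 0.384, and 6 had an unadjusted p under 0.05. Of the nuclear genes of the respiratory chain, 33 of 55 tested were positive and 22 negative, with a median of 0.06 and 0 passing in edgeR (3 with an unadjusted p under 0.05). The mitochondrial share was also higher in every aged than in every young mouse in basal cells (8.27% ± 1.76 against 5.95% ± 0.35, SD, n = 3 each), early suprabasal cells and superficial cells (5.72% ± 0.95 against 3.52% ± 0.21), and the groups overlapped in cells leaving the basal state. Whether its size differed between classes was not tested. The share is a ratio, so more mitochondrial RNA and less other RNA cannot be told apart.

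**Figure D5:**
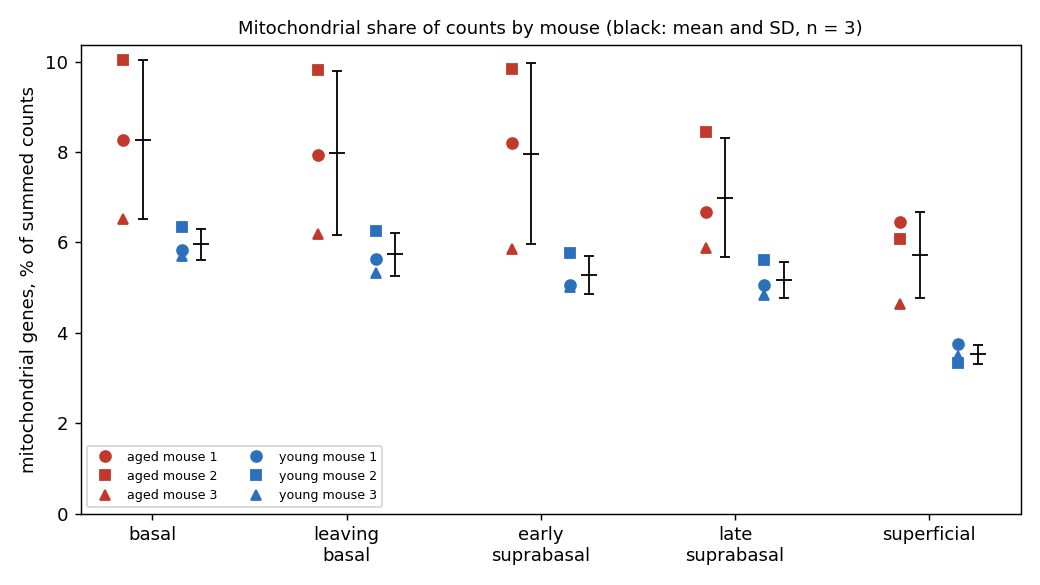
Share of summed counts on 21 mitochondrial genes (y axis, percent) by class (x axis), 1 point per mouse, with the mean and SD of 3 mice in black. In late cells the aged mice lie at 5.87% to 8.43% and the young mice at 4.84% to 5.61%.

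Other values of late cells overlapped between the groups. A late cell held a median of 2708 ± 436 counts in the aged group and 2645 ± 65.6 in the young group, and a median number of detected genes of 1037 ± 79.9 and 1057 ± 14.5 (SD, n = 3 each). The share of counts on Krt4 and Krt13 was 6.92% ± 0.76 and 7.04% ± 1.00. Exact permutation p was 0.6 to 0.8 for the median counts, the median genes and the share on ribosomal protein genes. The ranking value at the limit overlapped too. Like the share on Krt4 and Krt13, it comes from counts that the ranking used, so no test of these is given.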

How the data were processed

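Single-cell RNA was measured in 12 libraries of 6 mice. The values in the deposited tables are raw integer counts, with genes named by symbol and cells by barcode, and no scaling by the authors. Per the submitters' processing notes, the tools were UMI-tools 1.0.0, STAR 2.7, Subread 2.0.0, featureCounts and Seurat, with build GRCm38. Their order, and whether a count is a molecule or a read, are not given in the sources used here. The labels' protocol describes inDrop and closes by naming a modified Smart-Seq2 protocol.

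Groups and mouse numbers came from the sample titles. Counts were summed per barcode over the libraries of a mouse, and barcodes with at least 200 genes and at most 20% mitochondrial counts were kept. Scrublet (in scanpy 1.11.5) called 1 late cell a doublet, which was left in. Late-cell counts were summed per mouse and tested with edgeR 4.0.16 (quasi-likelihood, TMM, low-count filter, two-sided, Benjamini-Hochberg). The age-by-class test had the mouse as a term. Values per mouse were compared by exact permutation. DESeq2 1.42.0, other filters, class widths, depth, and each mouse and library were alternatives. The code was tested on simulated data.

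The members, gene lists and tests were chosen with earlier results of these data known, and the sterol list and the limit on Krt1 and Krt10 after the values were seen. Named genes were those past the threshold and the 8 higher and 8 lower of smallest p without overlap; 1 of the higher is not reported here. Against the neighbouring classes they were the 12 highest and 12 lowest median ratios among genes of at least 100 CPM with 1 direction in all 6 mice, and list members of at least 20 CPM.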

Additional observations from a re-analysis of the deposited data

Results flagged for a closer look

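The fitted age difference of Krt4 in late suprabasal cells minus that in basal cells was -0.91 on the log2 scale. It is listed because the fit over all genes set it apart, but Krt4 is one of the genes whose counts chose both classes, so the value is a description, with no test. After thinning to 1000 counts, Krt4 was also found in 92.9% of the fibroblast-like barcodes of aged mouse 2 and in 25.0% to 83.3% of those of the other mice.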

How the results depend on the processing

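The number of genes called between aged and young late cells was 3, and 1 to 9 over 20 alternatives. It was 9 with no filter on low counts, 7 with the mouse number as replicate block, 8 in the highest of 3 equal parts of the ranking, 1 with all mice thinned to the shallowest, and 2 to 7 with 1 mouse left out. Krt6a was called in 20 of the 20 alternatives, H19 in 18 and Hoxc8 in 15. The test against basal cells called 1 gene (Krt4, which the ranking used), 2 with DESeq2's size factors, 2 with no filter, and 1 to 5 with 1 mouse left out. All these counts include Krt4, and that without aged mouse 3 also Krt15 and Cnfn, further genes of the rule. The test against early suprabasal cells called 0 in its 8 alternatives. The mitochondrial share differed by 1.11 to 2.39 points over 17 alternatives, with exact permutation p of 0.1 to 0.25, and by 1.83 with the replicate block (p = 0.25). Each exact permutation p is the smallest its design can give: 0.1 with all mice, 0.2 with 1 mouse left out and 0.25 with the block. None could fall under 0.05. Deviations from the group mean had correlations of -0.15, -0.06 and -0.05 between same-numbered mice, and of -0.08 to 0.14 between the others. With means of 3 mice, these values cannot tell whether the numbers pair mice.

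Values that overlapped between groups changed sign in places. With 1 mouse left out, the aged minus young difference in median counts ran from -160.6 (without aged mouse 1) to 275.2, and that in median genes from -61.6 to 18.2 (without aged mouse 2). The difference in the ranking value at the limit was -0.033 in the highest of 5 equal parts and -0.29 in the highest of 3. With 1 mouse left out it ran from -0.32 (without young mouse 2; -0.23 without aged mouse 3) to 0.41. That in the share of Krt4 and Krt13 ran from -0.69 to 0.26 points (0.24, 0.26 and 0.045 without aged mouse 1, young mouse 1 and young mouse 3), and that of ribosomal protein genes from -0.015 (without aged mouse 1) to 0.70. The cause was not tested for any of these. Ranking after thinning and merging barcodes were chosen after seeing the data. In the shallowest mouse, with 128364 counts, 1 count of H19 amounts to 7.79 CPM, which limits the precision of low genes.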
